A study of Mus musculus with 12 samples.

Results

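The genes described here are 8 transcripts that mark the mouse eosinophil, namely the granule protein genes Epx, Prg2 and Prg3, the granule ribonuclease genes Ear1, Ear2 and Ear6, and the surface receptor genes Il5ra and Ccr3. They were chosen by symbol, and all 8 were found among the 24533 gene symbols of both deposited tables. The study sequenced RNA from 12 libraries of C57BL/6 mouse bone marrow in 4 groups of 3. The groups are LSK cells labelled U2af1KO, LSK cells labelled WT, lineage-negative (LinNeg) cells labelled U2af1KO and LinNeg cells labelled WT. LSK cells are the lineage-negative fraction positive for Sca-1 and Kit, which holds the stem and multipotent cells. U2af1 encodes the small subunit of the factor that reads the end of an intron. Marrow was depleted of lineage-positive cells with a magnetic kit before flow sorting. A further label of the LSK cells, BMT, is not expanded by the submitters. No age, deleting enzyme or induction is given for any group, and nothing says that replicates were separate animals, so the p-values measure the spread among libraries, part or all of which may be technical.

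Eosinophils arise in the marrow from granulocyte progenitors under the transcription factors GATA1, C/EBP and PU.1 and expand in response to interleukin-5. Their granules are packed with a peroxidase (Epx), major basic protein (Prg2), its homolog (Prg3) and ribonucleases of the Ear family, and granule protein messages are made while the cell is still immature. The cell carries the interleukin-5 receptor alpha chain (Il5ra) and the eotaxin receptor (Ccr3), both of which human basophils carry as well.

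The values are the authors' comparisons of libraries labelled KO with libraries labelled WT, from DESeq2 as run by the authors. For each gene and table there is an average normalized count (KO and WT libraries together), a log2 fold change (KO over WT) and a standard error. Values per library were not analysed here and depth per library is unknown. Means under each label were derived from the overall mean and the fold change, so they carry no spread of their own; the spread is in the standard error. A gene was called when the authors' adjusted p was under 0.05. In bulk samples a change in the number of eosinophil-lineage cells and a change in RNA per cell cannot be told apart.

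U2af1 itself was higher in the libraries labelled KO in the authors' deposited table for LSK (log2 fold change 0.61, standard error 0.06, DESeq2 adjusted p = 1.72e-25) and in that for LinNeg (0.65, standard error 0.19, DESeq2 adjusted p = 0.00293). Gene-level counts take in any exons left by a deletion and so do not check the label, and every direction given here rests on how the authors named the comparison. Sex-linked genes, looked at after their values were seen, also differed: in LSK the authors' deposited table gave -9.21 for the Y-linked gene Ddx3y and 7.49 for the X-inactivation RNA Xist, and in LinNeg -0.79 for Ddx3y (not called) and 10.02 for Xist. The sex of the mice and the genotype label cannot be told apart in LSK. In LinNeg Xist was called (standard error 1.81, DESeq2 adjusted p = 2.73e-07), and Ddx3y had a standard error of 1.64. Sex may therefore be tied in part to the label in LinNeg too. The stem and progenitor receptor Kit had derived means of 14587 under the KO label and 28724 under the WT label in LSK, and of 2114 and 1644 in LinNeg.

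The 8 genes lie on 5 mouse chromosomes (build mm10, GENCODE M21 annotation). Prg2 lies at chr2:84980461-84983632 and Prg3 at chr2:84988215-84993886, both on the plus strand with 6 exons and 4582 bases apart. Epx lies at chr11:87864000-87875536, minus strand, 13 exons. Il5ra lies at chr6:106710357-106749037, minus strand, and Ccr3 at chr9:124021972-124031689, plus strand. The 3 ribonuclease genes lie on chromosome 14, with Ear1 at chr14:43818765-43875517 on the minus strand, Ear2 at chr14:44102654-44103534 and Ear6 at chr14:51853699-51854643, both on the plus strand, and each main transcript has 2 exons.

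The ribonuclease genes are near copies of one another, which limits what a count of uniquely placed reads can say of each. Ear1 and Ear2 were identical at 95.7% of 465 aligned coding bases, and Ear1 and Ear6 at 87.3%, whereas Prg2 and Prg3 shared 64.9% of 658. Of the stretches of 50 bases in the main transcript, 57.4% in Ear1 and 41.5% in Ear2 recur in transcripts of other genes, against 1.36% in Ear6 and 0.544% in Il5ra. For Epx, Prg2, Prg3 and Ccr3 no such stretch recurs. In the annotation the span of Ear1 also overlaps the pseudogenes Ear-ps9 and Ear-ps12, and that of Ear2 a lincRNA on the other strand. The values of Ear1 and Ear2 are therefore uncertain as to which copy the reads came from. The following coding stretches of 60 bases, from GENCODE M21 transcripts in mm10, are shown because they hold the most differences between Ear1 and Ear2 (5 bases); capitals mark the 10 positions at which any of the 3 genes differs.
Ear1, chr14:43819255-43819314, minus strand: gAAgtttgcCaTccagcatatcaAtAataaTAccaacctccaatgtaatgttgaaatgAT
Ear2, chr14:44102982-44103041, plus strand: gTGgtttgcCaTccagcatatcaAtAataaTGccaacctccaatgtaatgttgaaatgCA
Ear6, chr14:51854093-51854152, plus strand: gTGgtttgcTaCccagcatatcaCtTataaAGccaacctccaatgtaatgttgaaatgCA

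Promoter sequences from RefSeq (GRCm38.p6, the mm10 assembly) were found for 7 of the 8 members, and the 150 bases before the start are shown for 4 members with a call in either table. Capitals mark GATAA on either strand (written TTATC on the other), the core read by GATA factors, and TATAAA on either strand.
Epx, chr11:87875537-87875686, minus strand: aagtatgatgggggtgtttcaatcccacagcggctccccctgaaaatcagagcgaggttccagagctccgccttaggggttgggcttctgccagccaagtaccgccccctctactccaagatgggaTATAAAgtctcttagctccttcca
Prg3, chr2:84988065-84988214, plus strand: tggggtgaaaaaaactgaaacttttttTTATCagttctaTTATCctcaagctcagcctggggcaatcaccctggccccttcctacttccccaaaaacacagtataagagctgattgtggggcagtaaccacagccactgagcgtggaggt
Il5ra, chr6:106749038-106749187, minus strand: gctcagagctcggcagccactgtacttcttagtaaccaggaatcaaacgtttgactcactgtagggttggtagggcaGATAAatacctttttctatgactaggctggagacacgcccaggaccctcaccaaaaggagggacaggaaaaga
Ccr3, chr9:124021821-124021970, plus strand: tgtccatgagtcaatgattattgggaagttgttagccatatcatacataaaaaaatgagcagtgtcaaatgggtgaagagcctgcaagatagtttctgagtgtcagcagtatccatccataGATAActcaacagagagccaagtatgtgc

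Over the whole window of the promoter table, 250 bases before to 50 after the start, GATAA was found on either strand in 6 of the 7 members with an entry and in 25.4% of all 32851 entries. Prg3 held 2 matches, Ear1, Ear2, Ear6, Il5ra and Ccr3 held 1 each, and Epx held none. The Ear1 and Ear2 windows were identical at 294 of 297 aligned bases, and both were 92.8% identical to that of Ear6, so their matches are not separate observations. TATAAA was found in 1 of the 7 members (Epx) and in 13.6% of entries, and TTGCNNAA, a form of the C/EBP site, in 2 of the 7 (Ear1 and Ear2) and in 10.8% of entries. These are matches of letters only.

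In LSK cells the messages of the 3 granule protein genes were far higher in libraries labelled KO. Epx, Prg2 and Prg3 rose, with log2 fold changes of 4.89 to 5.74, and Il5ra rose less, by 1.19. All 8 fitted fold changes were above 0; 4 of the 8 had an adjusted p, and these 4 were called higher, none lower. Of all tested genes in LSK, 61.6% were called, 32.4% higher and 29.2% lower, with a median log2 fold change of 0.04, so a call by itself is common there and the count of 4 is not read as a result.

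Epx, which makes hypobromous acid in the granule, had a derived mean of 1303 normalized counts under the KO label and 24.4 under the WT label in LSK. The authors' deposited table gave it a log2 fold change of 5.74 (standard error 1.22, 95% interval 3.34 to 8.14, DESeq2 adjusted p = 7.24e-06). The lower end of that interval is a 10.1-fold rise, so the size is known only within wide limits.

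Prg2, the major basic protein that forms the crystalline core of the granule, had 2362 under the KO label and 79.7 under the WT label. In the authors' deposited table for LSK its log2 fold change was 4.89 (standard error 0.88, 95% interval 3.17 to 6.61, DESeq2 adjusted p = 7.42e-08). Prg3, the homolog of major basic protein, had 107 under the KO label and 2.29 under the WT label. Its log2 fold change in the authors' deposited table was 5.54 (standard error 0.80, 95% interval 3.98 to 7.11, DESeq2 adjusted p = 1.55e-11). The intervals of the 3 granule protein genes overlapped throughout, and no order among them was tested.

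Il5ra, the chain that gives the interleukin-5 receptor its specificity, had 51.9 under the KO label and 22.8 under the WT label in LSK. The authors' deposited table gave it 1.19 (standard error 0.47, 95% interval 0.27 to 2.10, DESeq2 adjusted p = 0.0193), a call that is not made at an adjusted p under 0.01.

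Ccr3 and Ear1 had a fold change in LSK but no p, a state in which DESeq2 by default leaves genes where a single library stands far from the rest. Only 3 genes of the LSK table were in that state, and the other was Siglec1, a sialic acid receptor of macrophages, named after its value was seen. Ccr3 had derived means of 44.4 under the KO label and 12.7 under the WT label, and in the authors' deposited table its log2 fold change was 1.81 (standard error 1.40). Ear1 had 40.0 under the KO label and 0.181 under the WT label; the WT value is below 1 normalized count, so the 7.79 (standard error 2.72) in the authors' deposited table is a fitted value and not a measured ratio. Ear2 and Ear6 had derived means of at most 0.518 under either label in LSK and had no adjusted p (unadjusted p = 0.811 and 0.643 from the authors' DESeq2).

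**Figure D1:**
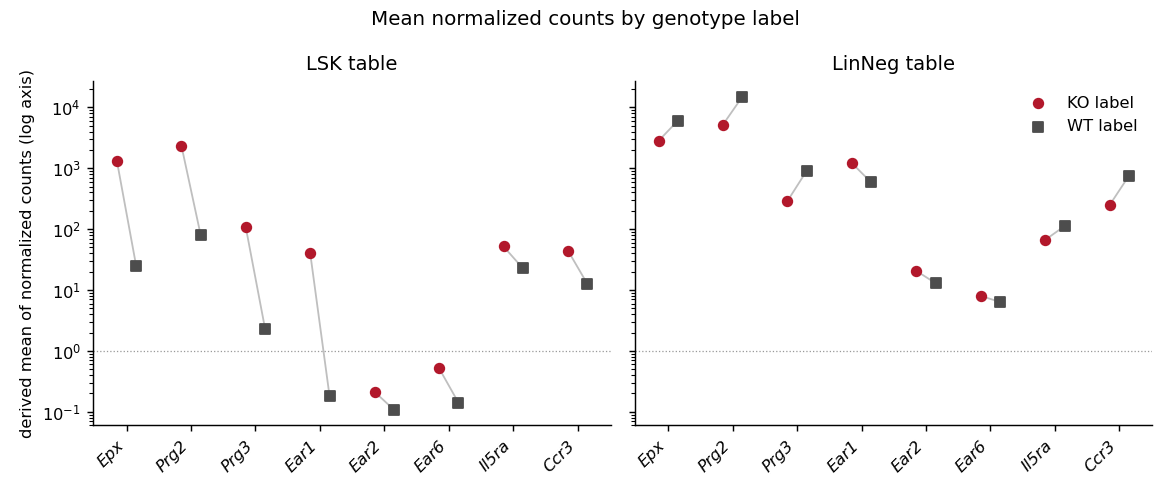
Derived mean of normalized counts (log axis) of each gene under the KO label (circles) and the WT label (squares), in the LSK table (left) and the LinNeg table (right); grey lines join the 2 labels of a gene, the dotted line is 1 normalized count, and points below it are not measured levels. Epx, Prg2 and Prg3 lie far higher under the KO label in LSK and somewhat lower under it in LinNeg; the tables were normalized separately, so heights are not compared between panels.

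In LinNeg cells Ccr3 fell, and none of the other 7 passed the test. Of the 8 fitted fold changes 5 were below 0 and 3 were above, with a median of -0.93 beside 0.16 over all tested genes. The call of 1 member lower compares with 41.4% of all tested genes called in LinNeg, 22.1% higher and 19.3% lower. At an unadjusted p under 0.05 there were 3 members, Ccr3, Prg3 and Prg2, all lower. Since 41.4% of all tested genes passed even the stricter adjusted threshold, that count of 3 is not read as a result.

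Prg2 had a derived mean of 5228 under the KO label and 14970 under the WT label in LinNeg, with a log2 fold change of -1.52 (standard error 0.76, DESeq2 adjusted p = 0.0964) in the authors' deposited table. Prg3 had 290 under the KO label and 913 under the WT label, and -1.65 (standard error 0.80, DESeq2 adjusted p = 0.0832) in the same authors' deposited table. Both fitted values lie near a 3-fold lower level and both miss the threshold. Epx had 2820 under the KO label and 6078 under the WT label, and the authors' deposited table gave -1.11 (standard error 0.90, 95% interval -2.88 to 0.66, DESeq2 adjusted p = 0.341). That interval runs from well below 0 to a 1.58-fold higher level.

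Ccr3, the receptor through which eotaxins attract eosinophils, had 248 under the KO label and 752 under the WT label in LinNeg. The authors' deposited table gave -1.60 (standard error 0.25, 95% interval -2.09 to -1.11, DESeq2 adjusted p = 1.58e-09), a 3.03-fold lower level under the KO label. Its fitted change is of the same size as those of Prg2 and Prg3, and the call follows from a standard error about 3 times smaller. Il5ra had 66.5 under the KO label and 112 under the WT label, with -0.75 (standard error 0.54, DESeq2 adjusted p = 0.276) in the authors' deposited table.

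The ribonuclease genes had fitted values above 0 in LinNeg, none of them called. Ear1 had 1214 under the KO label and 584 under the WT label, with 1.06 (standard error 1.06, 95% interval -1.01 to 3.13, DESeq2 adjusted p = 0.449) in the authors' deposited table. Ear2 had 20.6 under the KO label and 12.9 under the WT label, and Ear6 had 8.0 and 6.36 under those labels; the DESeq2 adjusted p values in the authors' deposited table were 0.710 and 0.906.

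**Figure D2:**
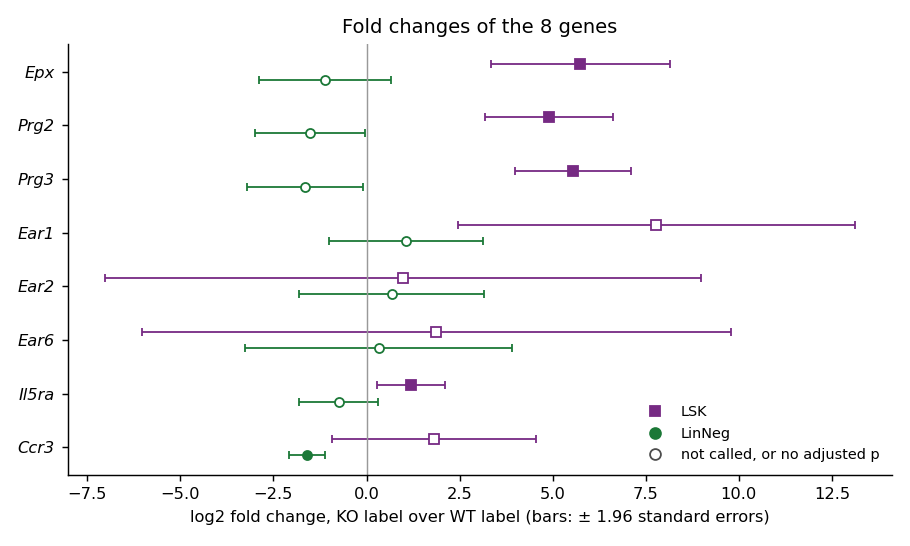
Log2 fold change, KO label over WT label, of each gene in LSK (squares, upper of each pair) and LinNeg (circles, lower); bars are 95% intervals from the standard errors, filled symbols are called at an adjusted p under 0.05, and open ones are not called or have no adjusted p. Epx, Prg2, Prg3 and Il5ra are filled and right of 0 in LSK, and Ccr3 is the filled one in LinNeg, left of 0.

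The effect of the KO label differed between LSK and LinNeg for 4 of the 6 members that had a p in both tables, all of them higher in LSK. Over all 17397 genes tested for this difference, 28.3% were called, 15.5% higher in LSK and 12.8% lower. The difference is not particular to the members. Of the neutrophil markers 13 of 15 were called higher in LSK. So were 15 of 16 monocyte, macrophage and dendritic cell markers, with none lower in either list. Of 12 lineage transcription factors 7 were higher and 1 lower, and of 12 erythroid markers 2 were higher and 2 lower. For Prg3 the difference of the log2 fold changes was 7.20 (standard error 1.13, 95% interval 4.99 to 9.41, adjusted p = 3.86e-09 from the DESeq2 standard errors). For Prg2 it was 6.41 (standard error 1.16, adjusted p = 4.74e-07 from the DESeq2 standard errors) and for Epx 6.85 (standard error 1.52, adjusted p = 6.28e-05 from the DESeq2 standard errors). Il5ra differed by 1.94 (standard error 0.72, adjusted p = 0.0270 from the DESeq2 standard errors). Ear2 and Ear6 had standard errors of the difference above 4 and were not called. The 2 tables differ in more than cell population, since only the LSK cells carry the BMT label. The sex-linked gene Ddx3y also differed, at -9.21 in LSK and -0.79 in LinNeg. For Xist the difference of -2.53 (standard error 2.04) was not called (adjusted p = 0.411 from the DESeq2 standard errors). Population, BMT label and sex cannot be told apart in these differences.

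The proportions among the 3 granule protein messages varied within about 2-fold. Per kilobase of exon, Prg2 stood at 5.92 times Epx under the KO label and 10.7 times under the WT label in LSK, and at 6.06 and 8.04 times under those labels in LinNeg. Epx stood at 4.23 times Prg3 under the KO label and 3.69 times under the WT label in LSK, and at 3.37 and 2.31 times in LinNeg. Prg2 stood at 25.1 times Prg3 under the KO label and 39.4 times under the WT label in LSK, and at 20.4 and 18.6 times in LinNeg. These ratios of levels are within a table, have no error of their own and were not tested. Ear1 varied more: per kilobase it stood at 1.61 times Epx under the KO label and 0.36 times under the WT label in LinNeg, and at 0.115 times under the KO label in LSK. So did Il5ra, which per kilobase stood at 0.030 times Epx under the KO label and 0.715 times under the WT label in LSK, against 0.018 and 0.014 times in LinNeg.

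Prg2 ranked high per kilobase, except under the WT label in LSK, among genes with an adjusted p and a known length. In LSK it lay above 97.4% of 16027 genes under the KO label and above 44.0% under the WT label, while Epx lay above 77.0% and 24.7% under those labels. In LinNeg, Prg2 lay above 99.1% of 16641 genes under the KO label and above 99.8% under the WT label, at rank 142 and rank 41. Il5ra lay above 29.8% of genes under the KO label and 22.7% under the WT label in LSK, below Epx and Prg2 under both labels, and above Prg3 under the WT label, which lay above 17.5%. In LinNeg, under the KO and WT labels, Il5ra lay above 25.2% and 34.1% of genes, Ear2 above 30.0% and 29.5%, and Ear6 above 17.3% and 21.2%, so these 3 messages were low there.

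The standard errors of Epx, Prg2, Prg3 and Ear1 were wide for their level in both tables. In LSK the standard error of Epx (1.22) was larger than that of 99.9% of the 3773 genes with a mean within 2-fold of its own, whose median was 0.11. The same held for Prg2 (99.9%), Ear1 (99.8%), Ccr3 (99.5%) and Prg3 (95.9%), but not for Il5ra (55.5%), Ear6 (47.5%) or Ear2 (14.4%). Only 10 of the 8331 LSK genes with a mean over 500 had a standard error over 0.7, and Epx and Prg2 were among them. In LinNeg, Epx (99.7%), Ear1 (99.5%), Prg2 (99.4%) and Prg3 (98.7%) again stood near the top for their level, whereas Ccr3 (46.4%), Il5ra (40.6%), Ear2 (49.1%) and Ear6 (38.4%) did not. A wide standard error at a high mean goes with a wide spread between libraries of the same label; which libraries were high was not analysed here.

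**Figure D3:**
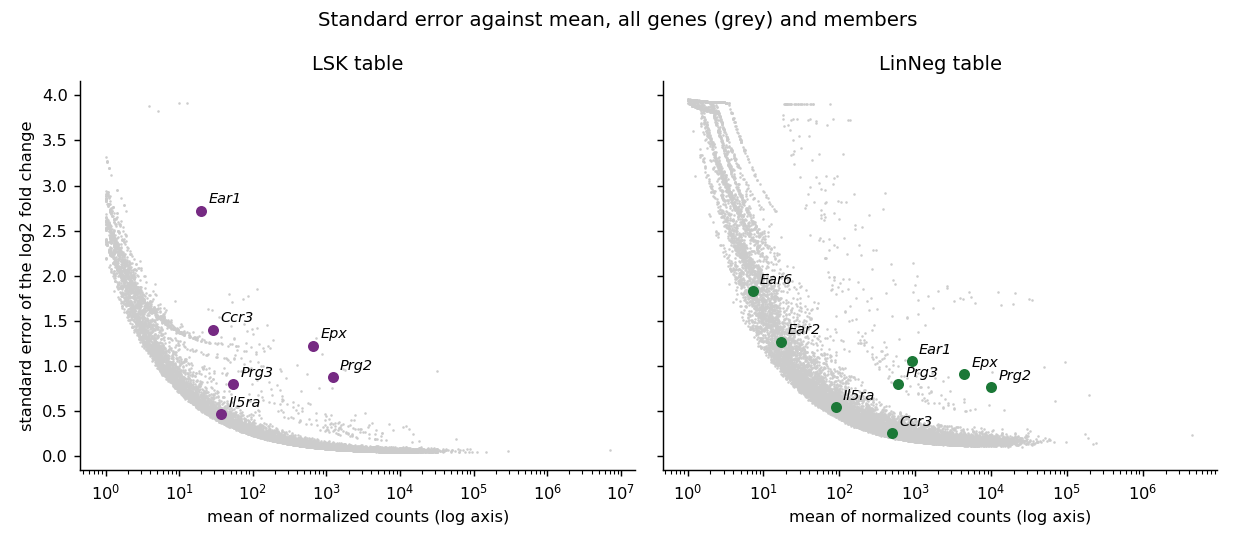
Standard error of the log2 fold change against the mean of normalized counts (log axis) for all genes with a mean of at least 1 (grey) and for the members that reach it (coloured and named), in LSK (left) and LinNeg (right). Epx and Prg2 stand above the cloud of genes of like mean in both tables, Ccr3 in LSK only, and Il5ra lies within the cloud in both.

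The transcription factors of the eosinophil lineage were measured in both tables. In LSK 8 of 12 rose and 3 fell (median 0.43), against 2 that rose and 6 that fell in LinNeg (median -1.03). For these and the list counts below, the shares over all tested genes were 32.4% called higher and 29.2% lower in LSK. In LinNeg they were 22.1% higher and 19.3% lower. Gata1, the factor that directs progenitors to the eosinophil, mast cell, erythroid and megakaryocyte fates, was at 1.89 (standard error 0.11) in LSK and 1.42 (standard error 0.20) in LinNeg in the authors' deposited tables, and was called in both. Cebpe, needed for the terminal steps of eosinophil and neutrophil granule formation, was at 2.03 (standard error 0.17) in LSK and called, and at -0.75 (standard error 0.60) in LinNeg and not called, in the authors' deposited tables. The effect on Cebpe differed between LSK and LinNeg by 2.78 (standard error 0.62, adjusted p = 6.44e-05 from the DESeq2 standard errors), while for Gata1 the difference of 0.47 was not called (adjusted p = 0.121 from the DESeq2 standard errors). Cebpb was at 1.39 in LSK and -1.66 in LinNeg, Cebpa at 0.30 and -2.75, and Id1 at 2.90 and -1.31, called in each of the authors' deposited tables. Xbp1, a secretory pathway factor that eosinophil differentiation depends on in mice, was at 0.40 and called in LSK and at -0.05 and not called in LinNeg in the authors' deposited tables.

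The 3 factors of the list that fell in LSK were Irf8, Spi1 and Gata2. Irf8, which favours monocytes and dendritic cells, was at -1.49 in LSK and -6.07 in LinNeg, and Spi1, encoding PU.1, at -0.48 and -3.15, called in each of the authors' deposited tables. Gata2 was at -0.69 in LSK and -2.19 in LinNeg in the authors' deposited tables, called in both. Zfpm1, a GATA1 partner that represses the eosinophil fate in chicken progenitors, was at 0.46 in LSK and 2.51 in LinNeg in the authors' deposited tables, called in both. Id2 was at 0.51 in LSK and called, and at 0.58 in LinNeg and not called; Trib1 passed in neither of the authors' deposited tables.

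**Figure D4:**
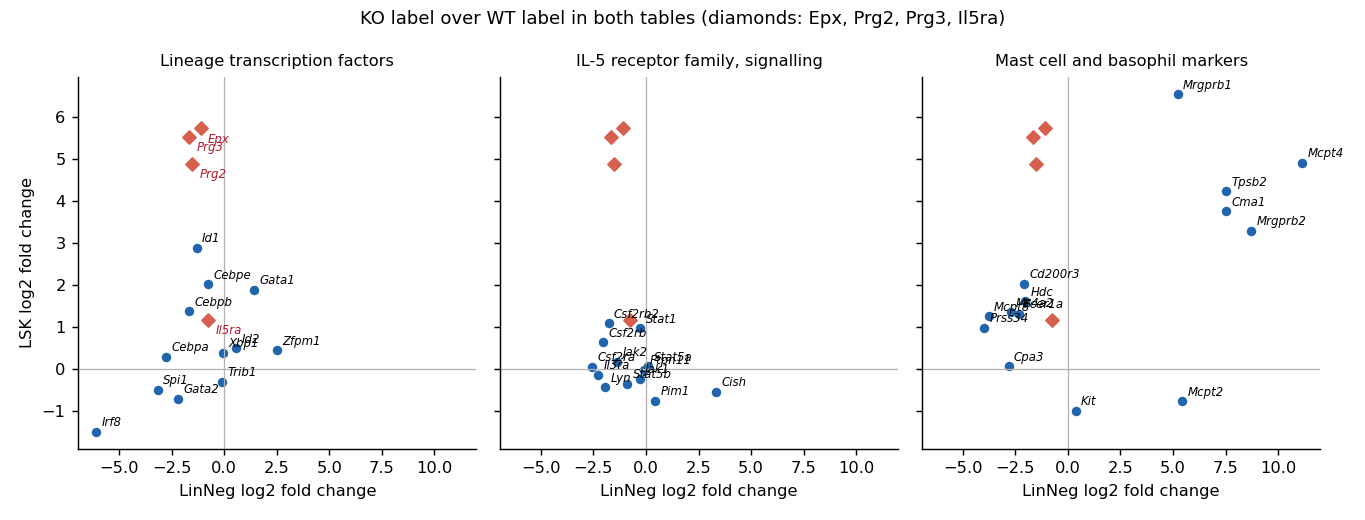
Log2 fold change, KO label over WT label, in LSK (vertical) against LinNeg (horizontal) for genes with an adjusted p in both tables, for lineage transcription factors, the IL-5 receptor family and signalling genes, and mast cell and basophil markers (circles); diamonds are Epx, Prg2, Prg3 and Il5ra in each panel. Epx, Prg2 and Prg3 lie at the upper left, above and to the right of the basophil genes (Mcpt8, Ms4a2, Prss34), and Il5ra lies lower.

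The chains that pair with Il5ra, and the genes downstream, had values in both directions. Of 13 genes of the IL-5 receptor family and its signalling, 4 rose and 5 fell in LSK (median -0.00), and 2 rose and 8 fell in LinNeg (median -0.89). The LSK counts lie near the shares over all tested genes and are not read as a result. Csf2rb, the common beta chain that signals for interleukin-5, interleukin-3 and GM-CSF, was at 0.65 in LSK and -2.05 in LinNeg in the authors' deposited tables, called in both; its near copy Csf2rb2 was also called higher in LSK and lower in LinNeg, and reads of the pair may not be told apart. The alpha chains Csf2ra and Il3ra were at 0.07 and -0.13 in LSK, not called, and at -2.55 and -2.29 in LinNeg, called, in the authors' deposited tables. Jak2, the kinase bound to the receptors, was at 0.18 in LSK and -1.37 in LinNeg, and Lyn at -0.43 and -1.93, called in each of the authors' deposited tables. Cish, a feedback inhibitor induced by STAT5, was at -0.53 in LSK and 3.35 in LinNeg, and Pim1, another STAT5 target, at -0.74 and 0.45, called in each of the authors' deposited tables.

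Other genes that eosinophils express were split as well, with 6 of 12 tested higher and 1 lower in LSK (median 1.02), and 4 of 13 higher and 7 lower in LinNeg (median -1.45). Siglecf, the sialic acid receptor used to sort mouse eosinophils, was at 0.48 in LSK and -1.72 in LinNeg in the authors' deposited tables, called in both. Ccr1 was at 1.45 and -2.35, and Il1rl1, the interleukin-33 receptor, at 2.16 and 0.67, called in each of the authors' deposited tables. The lipoxygenase gene Alox15 and the histamine receptor gene Hrh4 were at 2.02 and 1.88 in LSK, not called, and at -1.92 and -1.53 in LinNeg, called, in the authors' deposited tables. Their effects differed between LSK and LinNeg by 3.93 for Alox15 and 3.41 for Hrh4 (adjusted p = 0.00119 and 0.0107 from the DESeq2 standard errors). The LinNeg standard errors of Siglecf and Alox15 lay above 56.7% and 55.0% of those of genes of like mean, as ordinary as that of Ccr3.

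Ligands of the eosinophil were higher under the KO label in LinNeg, where 5 of 7 tested rose and none fell. Il5, the growth factor of the lineage, had a derived mean of 83.6 under the KO label and 0.187 under the WT label, so its 8.81 (standard error 1.53, DESeq2 adjusted p = 7.81e-08) in the authors' deposited table is a fitted value and not a measured ratio. Il33 was at 4.29, Csf2 (GM-CSF) at 3.10, the eotaxin gene Ccl11 at 5.31 and Ccl5 at 1.69, each called in the authors' deposited table for LinNeg. Il13, which is made with Il5 by type 2 lymphoid cells and is listed with the other eosinophil-expressed genes, was at 5.08 (standard error 1.66) and called in the same authors' deposited table. In LSK 1 of 6 tested ligands rose, namely Il33, whose derived WT mean was below 1; Il5 had a mean of 1.30 and was not called in the authors' deposited table. Il3 was listed at 0 in both tables.

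Of the 18 other Ear and RNase A family genes found in the tables, 12 were listed at 0 in LSK and 10 in LinNeg, among them Ear3, Ear4, Ear7, Ear12 and Ear14 in both. A 0 here is not read as absence of the message: the globin genes Hbb-bt and Hbb-bs, also near copies and named after their values were seen, were listed at 0 in both of the authors' deposited tables, where the erythroid gene Slc4a1 had means of 1700 in LSK and 6264 in LinNeg. The same limit holds for the low values of Ear2, in which 41.5% of the stretches compared above recur in transcripts of other genes. In Ear6 only 1.36% recur, and whether shared sequence bears on its low values was not tested. The low values of Ear6 are not read as absence either. Of the other family genes tested, 1 of 5 rose and 1 fell in LSK, and 2 of 6 fell and none rose in LinNeg. Rnase12 was at 1.88 in LSK and -3.25 in LinNeg, and Rnase6 at -1.55 and -2.70, called in each of the authors' deposited tables.

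Mast cell and basophil markers moved in both tables. In LSK 10 of 15 tested rose and 1 fell (median 1.63), and their summed derived means were 22011 under the KO label and 31981 under the WT label, of which Kit makes up the most. In LinNeg 5 of 14 rose and 7 fell (median -0.83), with sums of 61074 under the KO label and 621557 under the WT label. Mcpt8, Prss34 and Ms4a2, genes of basophils or of both cell types, fell in LinNeg in the authors' deposited table, as did Ccr3, and were at -3.77, -3.98 and -2.72. The mast cell protease genes were not uniform. In the authors' deposited tables Cma1 rose by 3.76 in LSK and 7.53 in LinNeg, and Tpsb2 by 4.24 and 7.52, whereas the carboxypeptidase gene Cpa3 was at 0.08 in LSK, not called, and at -2.82 in LinNeg, called. Mcpt4 and Mcpt2 were named after their values were seen. In the authors' deposited tables Mcpt4 was at 4.92 in LSK and 11.13 in LinNeg, called in both. The derived WT mean of Mcpt4 in LinNeg was below 1, so the 11.13 is a fitted value and not a measured ratio. Mcpt2 was called in neither, but its means of 2.67 in LSK and 4.05 in LinNeg are too low to say much. None of the 16 markers was at 0 in either table, and the part of mast cells and basophils in the values of Ccr3 and Il5ra was not tested.

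Neutrophil markers were also higher under the KO label in LSK, and monocyte and macrophage markers were mixed there. Of 16 neutrophil markers 13 rose and none fell in LSK (median 2.88), with sums of 172598 under the KO label and 61210 under the WT label, whereas none rose and 9 of 14 fell in LinNeg (median -2.64), with sums of 5019 under the KO label and 87878 under the WT label. Elane was at 2.52 and Lcn2 at 5.07 in LSK, and Mpo, the neutrophil counterpart of Epx, at 1.33, in the authors' deposited table. In LinNeg Mpo was at -4.90 in the authors' deposited table. Of 15 tested monocyte, macrophage and dendritic cell markers 6 rose and 4 fell in LSK (median -0.00), with sums of 10127 under the KO label and 19908 under the WT label. In LinNeg none rose and 13 of 15 fell (median -4.10), with sums of 7283 under the KO label and 69448 under the WT label. None of these markers was at 0, and their part in the granule gene values was not tested.

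Wide standard errors for the level were common in some of the other lists and rare in others. Counting genes whose standard error was above at least 95% of those of like mean, there were 8 of 16 neutrophil, 8 of 16 monocyte and macrophage, 8 of 16 mast cell and basophil, and 9 of 13 erythroid markers in LSK, beside 5 of the 8 members. In LinNeg these were 6 of 16, 6 of 16, 7 of 16 and 5 of 12, beside 4 of the 8 members. In LSK there were also 6 of 12 B cell, 3 of 12 megakaryocyte and 1 of 14 T and NK cell markers, and in LinNeg 2 of 12, 0 of 12 and 5 of 14 of these. Among the eosinophil lists, the IL-5 receptor family and signalling had 1 of 13 in LSK and 1 of 13 in LinNeg, the transcription factors 2 of 12 and 4 of 12, and the other eosinophil-expressed genes 1 of 13 and 2 of 13. The ligands had 0 of 8 in LSK and 0 of 7 in LinNeg, and the other Ear and RNase A family genes 0 of 6 and 1 of 8.

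Of the erythroid markers 2 were at 0 in LSK and 3 in LinNeg. Erythroid markers rose in 11 and fell in 1 of 12 tested in LSK (median 2.79), and rose in 10 and fell in 1 of 12 in LinNeg (median 2.55). Megakaryocyte markers fell in 10 of 11 and rose in none in LSK (median -1.73), and fell in 8 and rose in 1 of 12 in LinNeg (median -2.06). B cell markers fell in 4 of 12 in LSK (median -0.47) and in 3 of 11 in LinNeg (median -0.38), with no rises. The B cell falls in LSK lie near the 29.2% of all tested genes called lower there. T and NK cell markers rose in 1 and fell in 2 of 14 in LSK (median 0.87), and rose in 6 and fell in 1 of 12 in LinNeg (median 1.38).

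Among 13020 genes tested in both tables and averaging 10 or more in each, those nearest to Epx and Prg2 in the plane of both log2 fold changes were few and mixed. Nearest to Epx were Id4, Stum and Prg3, at distances of 0.34, 0.37 and 0.58 log2 units. Nearest to Prg2 were Lcn2, a neutrophil granule protein, Rtn1 and Stum, at 0.46, 0.56 and 0.58. This likeness rests on 2 values per gene.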

How the data were processed

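RNA was measured in 12 libraries, 3 in each of 4 groups. The submitters' processing notes name the build mm10 and HISAT2, StringTie, DESeq2 and SAMtools 1.10. How reads were counted, and on which annotation, is not given in the sources used here. Per the file headers, each of the 2 tables, as deposited, holds the authors' mean of normalized counts (a signal on a linear scale), log2 fold change, its standard error (log2), Wald statistic (a score), p-value and adjusted p-value. Tables were normalized separately by the authors. Rows that name no gene (5 per table) and repeated symbols (4) were left out; reads without a feature held 26.4% of the LSK total and 38.0% of the LinNeg total. Deposited fold changes are rounded, so each was taken as the Wald statistic multiplied by the standard error. Group means were derived from mean and fold change for 3 libraries a side. Depth is unknown, so no counting interval is given.

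The tests planned on counts could not be run, so calls use the authors' DESeq2 adjusted p. To compare tables, the LinNeg log2 fold change was subtracted from that of LSK and divided by the combined standard error (two-sided normal test, Benjamini-Hochberg over all genes with a p in both), a step tested on simulated data. The simulated noise was normal and drawn with the DESeq2 standard errors, so it checks the calculation and not those errors. Gene lists are described by counts with no set test. The members, the 12 gene lists and the motifs were chosen with earlier results of these data known. Genes named are the members, genes of the 5 eosinophil lists and U2af1. Named too are up to 4 genes with the smallest adjusted p per marker list and table, and the 3 nearest to Epx and to Prg2. Prss34, Mcpt2, Mcpt4, Hbb-bt, Hbb-bs, Siglec1, Xist and Ddx3y were added after their values were seen. Python 3.11.15 was used with scipy 1.17.1, numpy 2.4.6, pandas 2.3.3 and matplotlib 3.10.9.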

Additional observations from a re-analysis of the deposited data

Results flagged for a closer look

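The effect of the KO label differed between LSK and LinNeg by a test of the difference itself for 4 genes. The difference of the log2 fold changes, LSK minus LinNeg, was 6.85 for Epx, 6.41 for Prg2, 7.20 for Prg3 and 1.94 for Il5ra. In each, the fitted change was above 0 in LSK and below 0 in LinNeg, where none of the 4 was called on its own. A difference in this direction is not particular to these genes. It was also called for 13 of 15 neutrophil markers and for 15 of 16 monocyte, macrophage and dendritic cell markers. Cell population, the BMT label and sex cannot be told apart in this contrast.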

How the results depend on the processing

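The alternatives were an adjusted p under 0.01, fold changes recentred on the median gene, no filter on low means, a mean of at least 10, and, for the difference between tables, only genes with an adjusted p in both. Only recentring changes a fold change, and no value reversed under it. Under the others a reversal was not possible. At an adjusted p under 0.01 the call of Il5ra in LSK (log2 fold change 1.19, DESeq2 adjusted p = 0.0193) and that of its difference between tables (1.94, adjusted p = 0.0270 from the DESeq2 standard errors) were lost. With a mean of at least 10, the ligands called in LSK numbered 0, by construction, since Il33 has a mean of 6.59 there and the ligands left, Ccl5 and Tslp, were not called by the authors' DESeq2 (0 at an unadjusted p under 0.05). An alternative chosen after seeing the data took p from the deposited statistic where the table gives none: Ear1 in LSK, at a fitted 7.79, then passed (adjusted p = 0.00868 from the DESeq2 statistic), and Ccr3 did not (adjusted p = 0.291). The other 237 values and counts stayed on their side of the threshold or within 1.5 times. Values with no adjusted p were counted as not called and are among the 237. Examples are Ear1, Ear2, Ear6 and Ccr3 in LSK at an adjusted p under 0.01, which had no test to pass or lose. No paired analysis was possible because the tables hold no values per library; for the same reason leaving out each replicate was not run. The wide standard errors of Epx, Prg2, Prg3 and Ear1 limit the sizes given, and shared sequence limits Ear1 and Ear2.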
